A study of Homo sapiens with 6 samples.

Results

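TRAF1, CXCL8, TLR2 and MIR3142HG, 3 genes known to be switched on by the transcription factor NF-kB and the host transcript of the microRNA miR-146a, were followed in Kasumi-1 cells with and without a SETD8 knockout. The genes were taken by name from the deposited table of treated against control cells, so they are 4 of its 7983 genes. They were chosen by name with their difference between these groups, the fold change and the levels in these same libraries, already known. Their levels are therefore given as a description, with no test. Kasumi-1 is a human acute myeloid leukaemia cell line with the t(8;21) translocation. The control group was Kasumi-1 with a non-targeting guide (sgNT, genotype WT, 3 libraries), and the other group was Kasumi-1 with CRISPR/Cas9 knockout of SETD8 (sgSETD8, genotype SETD8 knockout, 3 libraries), a histone H4 lysine methyltransferase now named KMT5A. All cells grew in the same serum-containing medium, and no inflammatory stimulus is named in the labels. The labels give 1 cell line, do not say whether a library came from a clone or a pool, and do not say whether numbered libraries were separate cultures or guides, so the spread between libraries may be technical.

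NF-kB is a family of dimeric transcription factors held in the cytoplasm by inhibitor proteins until a receptor signal, from Toll-like receptors, the interleukin-1 receptor or the tumour necrosis factor receptors, releases it to the nucleus. Among its targets are chemokines that recruit leukocytes, receptors and adaptors of the same pathway, and inhibitors that end the response. miR-146a is one such feedback product: NF-kB drives its transcription, and the mature microRNA represses the adaptors IRAK1 and TRAF6. TLR2 is a surface receptor for bacterial lipopeptides, TRAF1 is an adaptor of TNF receptor signalling, and CXCL8 is interleukin-8, the main neutrophil chemokine.

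The sequences below are those through which these genes are linked to the pathway, shown so that the values can be read beside them. They were copied from RefSeq tables on build GRCh38.p14. The microRNAs are written 5′ to 3′ with the seed, bases 2 to 8, in capitals, and miR-146b-5p is shown because it is the close paralogue with the same seed. The miR-146a hairpin (+ strand, chr5:160485352-160485450) lay in an exon of 2 of 2 annotated MIR3142HG transcripts, and the miR-3142 hairpin lay in an intron of both.
hsa-miR-146a-5p: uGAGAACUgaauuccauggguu
hsa-miR-146b-5p: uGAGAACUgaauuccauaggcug
hsa-miR-3142: aAGGCCUUucugaaccuucaga
The seed GAGAACU occurred in 3 mature microRNAs of the table, the third being hsa-miR-7153-5p. The 2 microRNAs of the host transcript have different seeds.

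The 250 bases before the annotated start of each gene are printed next, 5′ to 3′ on the gene's own strand, with motif matches in capitals. Both strands were searched for GGNNTTTCC, a 9-letter form of the NF-kB (kappaB) site, for the 10-letter kappaB consensus, which can overlap it, and for TGANTCA, the site of AP-1, a JUN and FOS family factor. The 9-letter form was chosen so that it holds the CXCL8 site described in textbooks, so its match there is no result.
TRAF1 (chr9:120929172-120929421, - strand): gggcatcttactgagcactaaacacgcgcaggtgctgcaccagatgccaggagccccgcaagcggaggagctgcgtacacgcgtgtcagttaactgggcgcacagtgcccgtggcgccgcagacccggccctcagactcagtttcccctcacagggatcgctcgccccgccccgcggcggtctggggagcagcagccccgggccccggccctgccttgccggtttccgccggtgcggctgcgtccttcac
CXCL8 (chr4:73740319-73740568, + strand): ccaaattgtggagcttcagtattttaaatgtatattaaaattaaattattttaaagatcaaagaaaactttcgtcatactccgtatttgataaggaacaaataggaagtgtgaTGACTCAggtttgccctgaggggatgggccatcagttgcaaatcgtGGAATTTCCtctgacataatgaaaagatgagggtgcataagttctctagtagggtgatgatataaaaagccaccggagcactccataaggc
TLR2 (chr4:153684030-153684279, + strand): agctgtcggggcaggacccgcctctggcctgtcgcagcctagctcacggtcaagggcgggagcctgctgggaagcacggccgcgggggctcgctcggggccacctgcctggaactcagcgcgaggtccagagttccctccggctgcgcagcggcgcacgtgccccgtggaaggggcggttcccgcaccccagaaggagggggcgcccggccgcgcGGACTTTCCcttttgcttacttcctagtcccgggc
MIR3142HG (chr5:160468001-160468250, + strand): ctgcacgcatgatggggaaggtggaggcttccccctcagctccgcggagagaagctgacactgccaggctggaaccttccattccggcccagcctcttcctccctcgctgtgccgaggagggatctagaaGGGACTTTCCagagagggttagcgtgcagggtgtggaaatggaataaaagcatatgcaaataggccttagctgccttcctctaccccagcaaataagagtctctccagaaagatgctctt
In CXCL8 the capitals mark TGACTCA, which spans bases 137 to 131 before the start, and GGAATTTCC, at 91 to 83. In TLR2 they mark GGACTTTCC, 35 to 27 bases before the start. In MIR3142HG they mark GGGACTTTCC, 120 to 111 bases before the start, which matches the consensus and holds the 9-letter form. TRAF1 had none of these letters in this window or in the windows of its 2 other RefSeq starts. Of 34943 RefSeq windows of the same length, 5.48% held GGNNTTTCC, 5.20% the 10-letter consensus and 6.59% TGANTCA. These matches are descriptions of letters, and binding was not measured. The RefSeq start of MIR3142HG lies 29657 bases inside the gene as the deposited table gives it, and that of TRAF1 2 bases from the table's. Those of TLR2 and CXCL8 lie 210 and 63 bases inside the gene as the table gives it. The matches of TLR2 and MIR3142HG therefore lie inside the gene by the table's start, while those of CXCL8 lie before it. CXCL8, TLR2 and MIR3142HG have 3, 8 and 2 annotated starts, and for each only the window printed above is described.

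**Figure D1:**
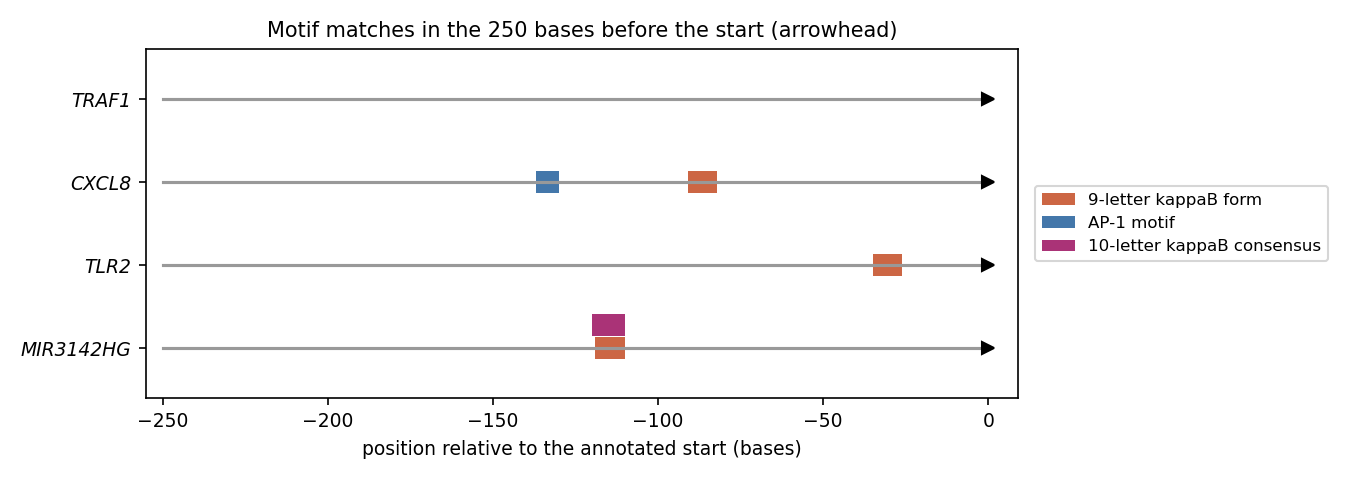
Position of motif matches in the 250 bases before the annotated start of each gene (x axis, bases before the start; arrowhead, start). Orange boxes mark the 9-letter kappaB form, the purple box the 10-letter consensus and the blue box the AP-1 motif; TRAF1 has no match, and the MIR3142HG boxes overlap.

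The libraries held 10966349 to 12557974 reads in the listed genes, and values below are normalized read counts, that is reads scaled by each library's size factor. The targeted gene KMT5A ranged from 1191 to 1255 in control and from 880 to 939 with the knockout. The largest p in the authors' deposited table was 0.049998, and genes outside it were not analysed here. A log2 fold change sets knockout over control and is computed on log2(value + 1).

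TRAF1 was lower in the knockout libraries. The gene (ENSG00000056558, chromosome 9, 120902393 to 120929173, hg38, - strand, protein-coding) read 852, 929 and 795 in control libraries 1 to 3, against 131, 162 and 159 in knockout libraries 1 to 3. All 3 knockout libraries lay far below the lowest control library, which was 4.91 times the highest knockout library. The means were 859 ± 67.6 in control and 151 ± 16.8 in knockout (SD, n = 3 each), a 5.70-fold lower level and a log2 fold change of -2.51. TRAF1 protein binds TRAF2 and the inhibitors of apoptosis BIRC2 and BIRC3 at TNF family receptors. These values rest on 2592 reads in control cells and 459 in knockout cells, each over 3 libraries.

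CXCL8 was also lower. It (ENSG00000169429, chromosome 4, 73740506 to 73743716, + strand, protein-coding) read 2703, 2406 and 2316 in control cells, against 661, 582 and 510 with the knockout. The groups did not overlap, and the lowest control library was 3.50 times the highest knockout library. The means were 2475 ± 202 and 584 ± 75.5, a 4.24-fold lower level and a log2 fold change of -2.09. CXCL8 still had 1766 reads over the 3 knockout libraries, so its transcript was reduced and not lost.

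TLR2 was higher in the knockout libraries. The gene (ENSG00000137462, chromosome 4, 153684070 to 153705702, + strand, protein-coding) read 215, 123 and 133 in control libraries 1 to 3, against 810, 704 and 774 with the knockout. Control library 1 stood above control libraries 2 and 3 and was 1.74 times the lowest. Even so, the lowest knockout library was 3.28 times control library 1. The means were 157 ± 50.1 and 763 ± 53.8, a 4.86-fold higher level and a log2 fold change of 2.32. This gene had the widest relative spread of the 4 in the control libraries, with an SD of 31.9% of the mean against 7.06% in knockout. Without control library 1 its log2 fold change was 2.56.

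MIR3142HG showed the largest difference of the 4 genes. This long noncoding RNA (ENSG00000253522, chromosome 5, 160438594 to 160487426, + strand, listed as lincRNA) read 306, 408 and 323 in control cells, against 2605, 2526 and 2597 with the knockout. The knockout libraries lay close together, with an SD of 1.68% of the mean, and the lowest was 6.19 times the highest control library. The means were 346 ± 55.0 and 2576 ± 43.3, a 7.45-fold higher level and a log2 fold change of 2.91. Over 3 libraries it had 1045 reads in control cells and 7824 in knockout cells. Mature miR-146a was not measured, since the libraries were made from poly-T-selected RNA, and the MIR146A gene was not analysed here. MIR3142, the other microRNA gene of the locus, which lies in an intron of the host, was listed with 1 read in all control libraries and 17 in all knockout libraries. These reads came to 0.0957% and 0.217% of the host gene's reads. They cannot be told apart from host transcript reads across the same bases.

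**Figure D2:**
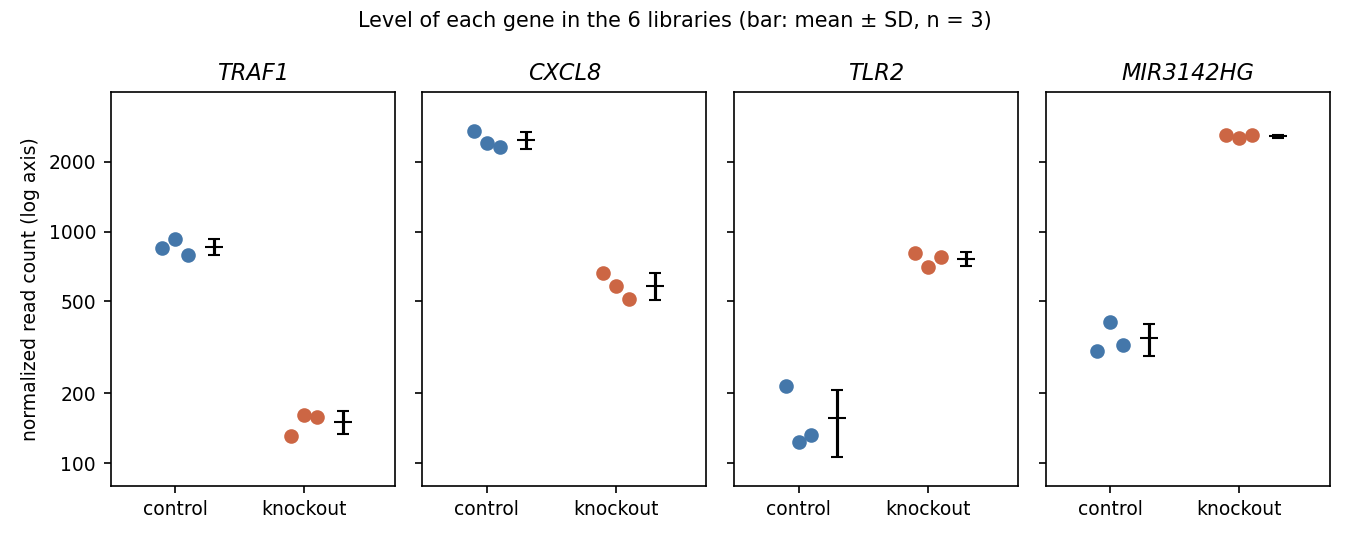
Normalized read count (y axis, log scale) of each gene in the 3 control libraries (blue) and the 3 knockout libraries (orange); black bars give the mean ± SD. TRAF1 and CXCL8 sit lower in knockout, at means of 151 and 584, and TLR2 and MIR3142HG sit higher, at 763 and 2576, with no overlap in any panel.

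The groups did not overlap for any of the 4 genes, as for 95.4% of the 7516 genes tested, so this says nothing particular about them. By size of change they stood further out. Among tested genes 1.60% had a more negative log2 fold change than TRAF1 and 2.42% than CXCL8, while 1.64% had a more positive one than TLR2 and 0.931% than MIR3142HG. They had been picked with these changes in view.

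The order of the 4 transcripts was rearranged between the groups when levels were put on a per-length scale (normalized count per kilobase of the gene length in the table). In control cells CXCL8 led at 1088 ± 89.0 per kilobase. MIR3142HG at 145 ± 23.1 and TRAF1 at 133 ± 10.5 followed and did not differ beyond their spread, and TLR2 was last at 30.1 ± 9.61. In knockout cells MIR3142HG led at 1084 ± 18.2 per kilobase, followed by CXCL8 at 257 ± 33.2, TLR2 at 146 ± 10.3 and TRAF1 at 23.4 ± 2.61. Each neighbour in that order differed by more than the SDs. The host transcript thus reached in knockout cells about the per-length level that CXCL8 had in control cells. In bulk RNA, fewer cells that express a gene and less RNA per cell cannot be told apart.

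The tested genes nearest to TRAF1 were lower in knockout too. Within 2 Mb of its start 15 genes were tested, and 15 of 15 were lower in knockout, with a median log2 fold change of -0.73 and a range from -3.09 to -0.22. Within 5 Mb, 30 of 32 were lower, with a median of -0.67. Over all tested genes 3786 of 7516 had a log2 fold change above 0, with a median of 0.14. TRAF1 itself was at -2.51, which is -1.77 relative to the 2 Mb median, and 1 of these 15 genes, the low-count AL162424.1, was further down. The nearest tested gene on the left was PHF19, a Polycomb-associated protein, which fell from 2777 ± 101 to 1670 ± 68.6 (log2 fold change -0.73, SE 0.06, limma-trend adjusted p = 1.66e-09). On the right it was C5, complement component C5, which fell from 353 ± 16.3 to 88.4 ± 19.8 (log2 fold change -2.01, SE 0.17, limma-trend adjusted p = 1.79e-09). The lower coordinates of PHF19 and C5 lie 46.7 and 49.9 kb from that of TRAF1. Lower coordinates serve as starts in all distances and windows around the genes, whatever the strand. PHF19, C5 and TRAF1 are on the - strand, where the lower coordinate is the 3′ end. What part the shared lower level of this segment has in the TRAF1 value was not tested.

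CXCL8 went against its surroundings. Of 5 tested genes within 2 Mb, 4 were higher, with a median of 0.40, and within 5 Mb 9 of 13 were higher. Over all tested genes 3786 of 7516 had a log2 fold change above 0. None of the 13 was as low as CXCL8, which says little, since CXCL8 was picked with its fall known. The nearest were ADAMTS3, a procollagen-processing protease 1460 kb to the left, which rose from 63.0 ± 21.3 to 112 ± 11.4, and MTHFD2L, a mitochondrial folate enzyme 374 kb to the right, which rose from 147 ± 15.9 to 207 ± 22.7 (limma-trend adjusted p = 0.0061 and 0.013). The related chemokine genes of the same cluster, such as CXCL1, CXCL2 and CXCL3, were outside the table and not analysed here.

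TLR2 and MIR3142HG lay among genes of mixed direction, as over all tested genes, where 3786 of 7516 had a log2 fold change above 0. Each stood above all of its tested neighbours within 5 Mb, which says little, since both were picked with their rise known. Around TLR2 3 of 6 genes within 2 Mb were higher (median 0.13), and within 5 Mb 6 of 13 (median -0.12). The closest rose with it: the pseudogene AC106865.1 from 174 ± 33.2 to 236 ± 4.62, 43.9 kb to the left, and RNF175, a RING finger gene, from 109 ± 6.17 to 213 ± 17.4, 26.1 kb to the right (limma-trend adjusted p = 0.022 and 2.98e-05). Around MIR3142HG 2 of 3 were higher (median 0.21), and within 5 Mb 4 of 8 (median -0.047). Its closest neighbour PTTG1, which encodes securin, rose from 551 ± 7.29 to 1108 ± 88.6 at 16.8 kb to the left (log2 fold change 1.00, limma-trend adjusted p = 1.25e-09), and SLU7, a splicing factor, fell with a log2 fold change of -0.31. The nearest tested gene on the right, NUDCD2, lay 3008 kb away and rose by 0.25 on the log2 scale (limma-trend adjusted p = 0.048). PTTG1 and MIR3142HG are on the same strand and do not overlap.

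**Figure D3:**
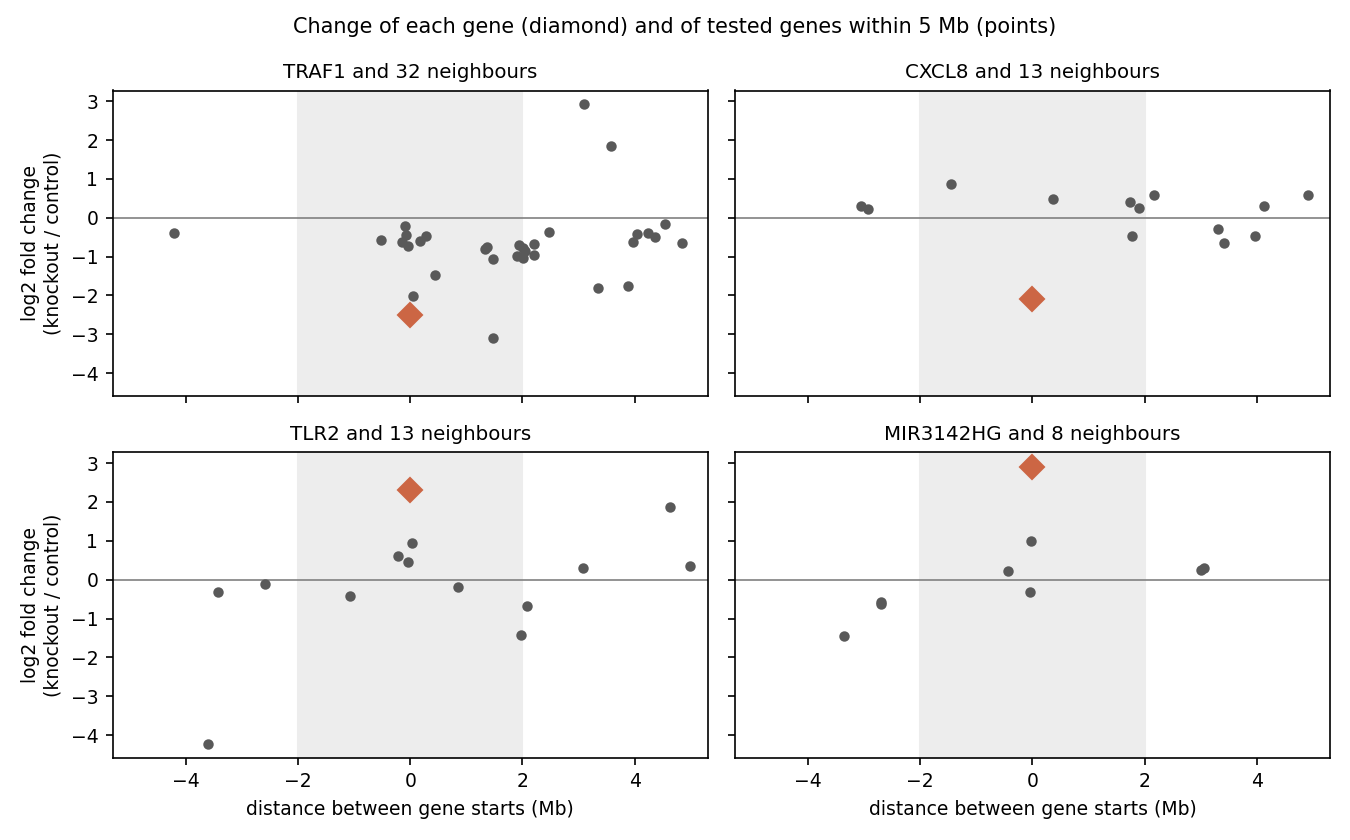
Log2 fold change, knockout over control (y axis), of each gene (orange diamond) and of tested genes within 5 Mb (grey points). The x axis gives the distance (Mb) between the lower coordinates of the genes, and the grey band spans 2 Mb on each side. All 15 points in the TRAF1 band lie below 0, while the diamonds of CXCL8, TLR2 and MIR3142HG stand outside the range of their neighbours. The genes drawn as diamonds were picked with these changes known.

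The genes most like each of the 4 over the 6 libraries were sought by the root mean square difference in log2(value + 1), each gene centred on its control mean, among genes that averaged at least 50. PMEPA1, a membrane protein that dampens TGF-beta signalling, was closest to TRAF1, with a difference of 0.045, and went from 170 ± 8.91 to 29.2 ± 3.92. ZEB1, a transcriptional repressor, and HDAC9, a histone deacetylase, followed at 0.11 and 0.12. HPSE, which encodes heparanase, was closest to CXCL8 at 0.10, going from 1999 ± 102 to 434 ± 27.9, with IL1RAP, the interleukin-1 receptor accessory protein, and ABCB1, a drug efflux pump, at 0.13 and 0.14. For TLR2 the closest were SIRPA, SERPINF1 and IL18R1, at 0.24, 0.24 and 0.25. SIRPA, a myeloid inhibitory receptor, went from 56.5 ± 12.1 to 261 ± 44.5, and IL18R1, the interleukin-18 receptor, from 205 ± 32.2 to 1181 ± 49.5. For MIR3142HG they were GGT1, a glutathione-cleaving enzyme, at 0.068, OPTN, the adaptor optineurin, at 0.091, and CD79B, a B cell receptor chain, at 0.13. With 2 groups of 3 libraries this likeness mostly reflects a like size of change.

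The wider pathway went both ways. Of 136 genes in 11 lists of the pathway, 70 were in the table and 69 were tested. At a limma-trend adjusted p below 0.05, 35 were higher and 31 were lower, that is 50.7% and 44.9% of those tested. Among all tested genes 47.3% were higher and 46.7% were lower, in a table already selected for change, so the pathway shares were near the background. The median change of tested genes within 5 Mb shared the gene's sign for 25 of the 35 higher and 18 of the 31 lower pathway genes. The same share was not computed over all tested genes, so these counts say nothing particular about the pathway. What part these surroundings have in the pathway values was not tested. The median log2 fold change was 0.25 for these 69 genes against 0.14 for all tested genes.

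Around TLR2, its partners and the adaptors below it moved in both directions. Of 5 tested Toll-like receptors and partners 3 rose and 2 fell (median 0.38). Over all tested genes 47.3% were higher and 46.7% lower, so this split and that of the adaptors below say nothing particular about so few genes. TLR6, which pairs with TLR2 to bind diacylated lipopeptides, fell from 305 ± 30.1 to 140 ± 14.9 (log2 fold change -1.11, SE 0.14, limma-trend adjusted p = 1.18e-06), opposite to TLR2. TLR1, the other partner of TLR2, was outside the table. CD180, a Toll-like surface receptor, read 30.7, 13.6 and 36.7 in control and rose to 90.7, 106 and 84.0, while LY86, the protein that CD180 needs at the surface, fell from 316 ± 6.52 to 11.7 ± 4.50. UNC93B1, which carries Toll-like receptors to endosomes, rose from 1694 ± 110 to 3236 ± 121. Of 6 adaptors 4 rose and 2 fell (median 0.49). MYD88, the adaptor that TLR2 uses, rose from 736 ± 75.3 to 1112 ± 85.4, and TIRAP, which bridges TLR2 and MYD88, rose from 79.4 ± 11.0 to 121 ± 19.7, a call lost without control library 1 (adjusted p = 0.097), knockout library 2 (0.073) or knockout library 3 (0.13) by limma-trend. IRAK3, an inhibitor of this pathway, rose from 3012 ± 62.1 to 5114 ± 453.

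TRAF1 had relatives on both sides too. Of 12 tested TRAFs and partners 6 rose, 5 fell and 1 was not called (median 0.38), where 47.3% of all tested genes were higher and 46.7% lower. TRAF3, an inhibitor of the noncanonical pathway, rose from 977 ± 61.2 to 1620 ± 62.5, and TRAF4 from 271 ± 19.7 to 474 ± 7.17. TRAF7 fell from 1903 ± 203 to 1180 ± 26.8, and TRAF6, the ubiquitin ligase of Toll-like receptor signalling, from 566, 590 and 577 to 314, 232 and 220.4. The log2 fold changes of these 4 genes ran from -1.19 to 0.81. TRAF1 at -2.51 lay outside their range, which says little, since TRAF1 was picked with its fall known. Of 7 tested TNF family receptors 5 rose and 2 fell (median 0.46). Against the shares over all tested genes, neither split says anything particular about its list. CD40, whose signal runs through TRAF proteins, rose from 312 ± 10.8 to 558 ± 51.6, TNFRSF10A, a TRAIL receptor, from 45.5 ± 5.94 to 120 ± 12.8, and TNFRSF11A, the receptor RANK, from 56.0 ± 21.1 to 107 ± 9.13. TNFRSF12A, the TWEAK receptor, fell from 99.3 ± 11.8 to 34.7 ± 11.0. TNFRSF12A and TRAF7 lie near each other on chromosome 16, and the 73 tested genes within 5 Mb of either had a median of -0.49, with 10 of 73 above 0.

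In the NF-kB core, 2 of the 5 subunit genes were tested: NFKB2 fell from 1221 ± 62.7 to 963 ± 12.1 (log2 fold change -0.34), less than the median of -0.68 over the 63 tested genes within 5 Mb of it, and RELA, at -0.17, was not called (limma-trend adjusted p = 0.082). Of 7 tested kinases of the IKK complex and upstream 4 rose and 3 fell (median 0.25), where 47.3% of all tested genes were higher and 46.7% lower. CHUK, the kinase IKK-alpha, fell from 585 ± 32.2 to 312 ± 20.2 (log2 fold change -0.91, where the 75 tested genes within 5 Mb had a median of -0.65), and IKBKB, the kinase IKK-beta, rose from 1103 ± 48.3 to 1550 ± 82.8. IKBKE rose from 402 ± 8.95 to 675 ± 41.9, and MAP3K8 from 267 ± 83.8 to 359 ± 18.4. The MAP3K8 call was lost without control library 1 (log2 fold change 0.30, limma-trend adjusted p = 0.20), where the change was also over 1.5 times smaller, and without control library 3 (0.10) or knockout library 2 (0.082). Of 6 tested inhibitors and feedback genes 4 rose and 2 fell (median 0.62). Against the shares over all tested genes, neither this split nor that of the kinases says anything particular about its list. TNFAIP3, the deubiquitinase A20, rose from 3363 ± 148 to 6212 ± 317, NFKBIZ from 483 ± 66.5 to 876 ± 19.7 and NFKBIE from 595 ± 27.1 to 1043 ± 91.0. NFKBIA, the classical inhibitor, fell from 1097 ± 30.0 to 769 ± 14.5 (log2 fold change -0.51, SE 0.07, limma-trend adjusted p = 5.17e-06).

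Other NF-kB target genes also went both ways. Of 38 written in the list 15 were tested, and 7 rose and 8 fell, with a median of -0.33. Over all tested genes 47.3% were higher and 46.7% lower, so this split says nothing particular about these targets. The largest change was that of CCL20, a low-count chemokine gene, which fell from 85.6 ± 15.4 to 4.31 ± 3.21. PTGS2, the inducible cyclooxygenase, fell from 160 ± 26.9 to 45.5 ± 7.52, and BCL2A1, a BCL2 family survival gene, from 187 ± 41.0 to 69.8 ± 17.0. GADD45B, a stress-response gene, rose from 181 ± 24.5 to 385 ± 39.7. CXCR2, a receptor for CXCL8, was the only 1 tested of 9 genes listed as CXCL8 receptors and related chemokines. It rose from 83.0 ± 19.2 to 129 ± 7.61, a call lost without control library 3 (log2 fold change 0.53, limma-trend adjusted p = 0.065). AP-1 and C/EBP factors are known to have sites beside the NF-kB site of CXCL8, and C/EBP sites were not searched for here. Of 8 such factors tested, 2 were higher and 5 lower (median -0.59), where the shares over all tested genes were 47.3% and 46.7%. JUN, a subunit of AP-1, fell from 5380 ± 111 to 1499 ± 53.1 (log2 fold change -1.84, SE 0.06, limma-trend adjusted p = 1.34e-16). FOSL2 fell from 4178 ± 221 to 2554 ± 88.8 and ATF3 from 767 ± 70.5 to 463 ± 30.9, while BATF rose from 94.4 ± 20.5 to 204 ± 11.9. What part these factors have in the CXCL8 value was not tested.

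**Figure D4:**
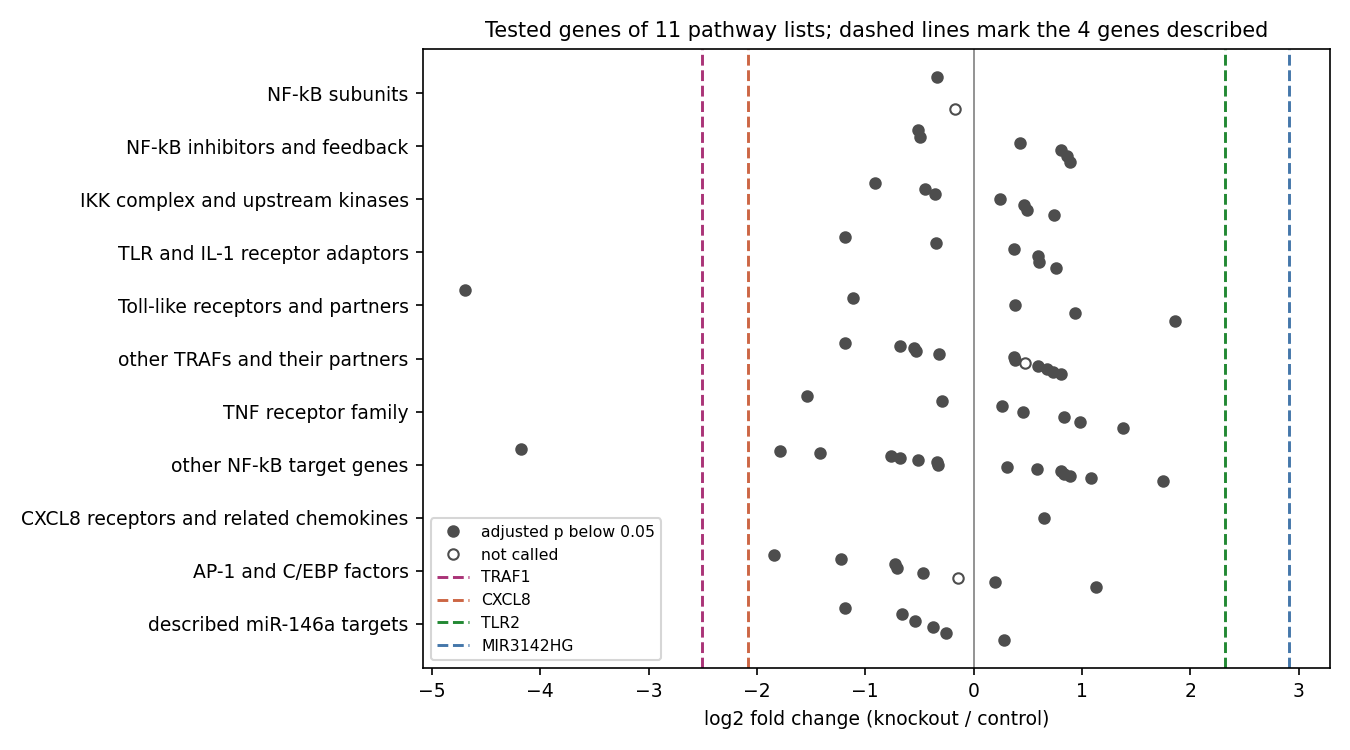
Log2 fold change, knockout over control (x axis), of each tested gene in the 11 pathway lists (y axis); filled points passed the limma-trend test and open points did not, and dashed lines mark the 4 genes described. Points lie on both sides of 0 in 9 lists, and genes in more than 1 list are drawn in each. Between the lines of CXCL8 and TLR2, genes picked with their changes known, lie 73 of 75 points. The other 2, LY86 and CCL20, lie below the line of TRAF1.

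Of 8 described targets of miR-146a in the list 6 were tested, and 5 fell and 1 rose, where 46.7% of all tested genes were lower and 47.3% higher. Their median was -0.46 on the log2 scale, where that of all tested genes was 0.14. TRAF6 fell most, with a log2 fold change of -1.19 (SE 0.12, limma-trend adjusted p = 4.71e-08). NOTCH1 fell from 1705 ± 180 to 1074 ± 93.0 and SMAD4 from 1312 ± 58.7 to 903 ± 49.1. Tested genes within 5 Mb had a median of -0.26 around NOTCH1, -0.19 around SMAD4 and 0.30 around TRAF6. What part these surroundings have in the target values was not tested. IRAK1, the other adaptor target, was outside the table. The 3′ untranslated region of TRAF6 (2811 bases in the longest annotated form) held the seed match AGTTCTC at 3 places. They are shown here as the sites through which the microRNA is known to act on this adaptor, with the match in capitals, on the transcript's strand.
TRAF6 site 1 (chr11:36489358-36489379): gctctagaaagttgAGTTCTCa
TRAF6 site 2 (chr11:36489293-36489314): ccttggaaaacttaAGTTCTCa
TRAF6 site 3 (chr11:36488559-36488580): atatcgtggaatctAGTTCTCa
SMAD4, NUMB and IRF5 held 1 match each and NOTCH1 none. Over all tested protein-coding genes with an annotated 3′ untranslated region, 931 of 6810 (13.7%) held at least 1 match, and their median log2 fold change was -0.28 against 0.19 for genes with none. Their 3′ untranslated regions were also longer, with medians of 3269 and 1200 bases. Among genes of like length, from 1891 to 5436 bases, the medians were -0.27 for 465 genes with a match and -0.25 for 1703 without. Of these genes, 38.5% with a match and 43.9% without had a log2 fold change above 0. Their median lengths were 3269 and 2901 bases. Whether the microRNA has a part in the lower level of TRAF6 was not tested.

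Markers of the line and of other blood cells were read beside these genes, since TLR2 and CXCL8 are also genes of mature myeloid cells. All 7 markers of the leukaemia line were in the table, and they did not move together. By limma-trend MPO, the myeloperoxidase of myeloid granules, fell from 12254 ± 373 to 1541 ± 27.3 (log2 fold change -2.99) and KIT, a stem cell factor receptor, fell by 0.48 on the log2 scale. CD33 (log2 fold change 1.19), ANPEP (1.34) and RUNX1 (0.65) rose. RUNX1T1, the fusion partner, at 2674 to 2809 in control and 2911 to 3134 in knockout libraries, and CD34 were not called (limma-trend adjusted p = 0.054 and 0.070). Of 10 monocyte and macrophage markers 3 were in the table, with a summed level of 142 to 216 in control and 212 to 268 in knockout libraries. They went in opposite directions: LYZ, lysozyme, read 2.04, 4.86 and 0 in control and rose to 57.3, 34.8 and 22.4, CSF1R rose from 71.5 to 158 in control to 165 to 189 in knockout libraries, and ITGAM fell from 54.4 to 68.5 to 13.5 to 44.7 (limma-trend adjusted p = 5.20e-05, 0.0089 and 0.0062). CD14 and 6 others were outside the table. Of 8 neutrophil markers 2 were in the table, and their sum went from 1669 to 1751 in control to 2894 to 2977 in knockout libraries. Most of this sum was CSF3R, which rose from 1615 ± 60.2 to 2794 ± 53.9, and the rest was CXCR2, given above. Of 5 B cell markers, some of which t(8;21) leukaemia is known to express, 4 were in the table and rose, with sums of 964 to 1203 and 1938 to 2101. Of 6 T cell markers 3 were in the table. CD3D rose from 1040 ± 22.7 to 1400 ± 133 (limma-trend adjusted p = 7.70e-05), while TRAC, at 11.7 to 22.5 in control and 0 to 3.13 in knockout libraries, and CD2, at 0 in all control and 1.99 to 11.2 in knockout libraries, were too low to be tested. Of 7 fibroblast and endothelial markers 1 was in the table, PDGFRB, at 2.04 to 8.92 and 25.0 to 36.7. None of the 7 erythroid markers was in the table. What part such genes have in the TLR2 and CXCL8 values was not tested.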

How the data were processed

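RNA of 6 Kasumi-1 libraries was selected with poly-T beads and made into directional libraries, per the labels' protocols. HISAT2, DESeq2 and build hg38 are named in the submitters' processing notes; the sources used here do not give versions, the counter or its strand setting. Values are a signal that is never negative, deposited by the authors: counts of reads scaled by 1 size factor per library, which gave whole reads, within 0.001, for 100% of values in each library. Per gene, the authors deposited a log2 fold change, a p-value and its adjusted form. All 7983 genes matched GENCODE release 29 in start and end.

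The 7516 genes with a mean of at least 10 entered a two-sided test on log2(value + 1), limma-trend from limma 3.58.1 under R 4.3.3. Benjamini-Hochberg adjustment assumed 19860 genes, the number the deposited adjusted p-values imply, and calls were made at 0.05. No test was read for the 4 genes themselves, and the 4 genes and the lists were chosen with earlier results of these data known. Named pathway genes were, for each list, up to 4 called genes averaging at least 50 and changed the most, beside each gene's nearest tested neighbours and the 3 genes most like it. One gene that this rule names is not reported here. Other genes named, and the searches of 3′ untranslated regions, were chosen after values were seen. Alternatives were other scalings, pseudocounts and filters, edgeR 4.0.16 and DESeq2 1.42.0 on the whole reads, a replicate block and leaving out each library. The limma step was tested on simulated data. Within groups, libraries differed beyond counting noise (chi-square per degree of freedom 3.87 to 12.2), so none was treated as a repeat. This does not show that they were separate cultures, so the limma-trend p-values may measure only technical spread.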

Additional observations from a re-analysis of the deposited data

How the results depend on the processing

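The 4 genes kept their direction under all 12 alternatives run for them, and no value moved by as much as the replicate SD. The log2 fold change ran from -2.56 to -2.41 for TRAF1, from -2.18 to -1.99 for CXCL8, from 2.17 to 2.56 for TLR2 and from 2.82 to 3.03 for MIR3142HG. Over the alternatives 31 to 36 pathway genes were called higher and 29 to 33 lower. Of 35 named pathway genes, 32 kept their call in all 16 settings, and CXCR2, MAP3K8 and TIRAP lost theirs in the libraries-left-out settings given above. With the window, the median change of genes around TRAF1, TLR2 and MIR3142HG moved by more than its SD between knockout libraries. Around CXCL8 it moved by less than that. From 2 Mb to 5 Mb it went from -0.73 to -0.67 around TRAF1 and from 0.40 to 0.29 around CXCL8. It went from 0.13 to -0.12 around TLR2 and from 0.21 to -0.047 around MIR3142HG. The cause was not tested. Same-numbered libraries did not deviate together (correlations 0.0086, -0.0033 and -0.050). With the number as a replicate block 35 pathway genes were called higher and 31 lower, and 3569 and 3522 genes in all. Scaling moved the median of all genes by -0.039 on the log2 scale at most (upper-quartile). A limit is that 66 of 136 pathway genes were outside the table.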
